A study of Mus musculus with 16 samples.

Results

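The classical cadherins and the protocadherins were followed through 16 RNA libraries of the adult mouse striatum and hippocampus. A gene was a member of the set when its symbol was Cdh with a number, Cdh5 excepted, or began with Pcdh. The rule used names alone, and it found 93 of the 24060 gene labels in each table. Of these, 59 belonged to the clustered Pcdha, Pcdhb and Pcdhg families, 12 were nonclustered protocadherins and 22 were cadherins.

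The study asked how astrocytes of striatal and hippocampal circuits differ. All 4 groups came from the same 4 mice, animals 970, 971, 974 and 977, at postnatal day 63, male and female, with the sex of each mouse not given in the labels. Every mouse was hemizygous for Aldh1l1-creERT2 and heterozygous for Ribotag, on an FVB background crossed back to C57/Bl6N for 3 generations, or about 88% C57/Bl6N. In RiboTag mice, cells with active Cre recombinase carry a hemagglutinin tag on a ribosomal protein, so that the ribosomes of those cells and the RNA bound to them can be pulled down from whole tissue. Aldh1l1 is a gene of astrocytes, and its promoter drives the Cre here. Each mouse gave a striatal IP, a striatal input, a hippocampal IP and a hippocampal input, where IP is the RNA precipitated with the tag and input is the cleared lysate of the whole region. There were thus 4 libraries a group and no mouse without the transgenes.

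Cadherins are calcium-dependent adhesion proteins that bind their like on the neighbouring cell and hold the actin skeleton through catenins. Type I and type II classical cadherins give cells of a kind their sorting and help to match synaptic partners. Clustered protocadherins are made from neighbouring promoters on a single chromosome, each promoter with its own first exon. The alpha and the gamma isoforms of a cluster end in the same constant exons, while beta isoforms are single-exon proteins. Combinations of isoforms give a neuron a surface identity by which it tells its own branches from those of other cells. In astrocytes, gamma protocadherins take part in contacts with synapses. Nonclustered protocadherins of the delta-1 and delta-2 groups act in cell sorting and axon tracts, and some of them bind regulators of actin.

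The IP libraries were enriched for astrocyte RNA. All 10 astrocyte markers were higher in the IP in both regions, with summed levels of 6567 to 12207 scaled FPKM in striatal IP, 538 to 641 in striatal input, 10474 to 14455 in hippocampal IP and 599 to 775 in hippocampal input. Of 10 neuron markers, 9 were lower in striatal IP and 10 in hippocampal IP, yet none was absent. The median neuron marker stood in the IP at 7.48, 9.09, 13.8 and 12.9% of its input level in the striatum of animals 970, 971, 974 and 977, and at 5.73, 5.58, 10.2 and 7.05% in the hippocampus. Depth, estimated from the step between FPKM values, was 14.0 to 21.6 M fragments (M for mega) in striatal IP, 4.15 to 8.97 in striatal input, 18.9 to 22.6 in hippocampal IP and 9.04 to 12.3 in hippocampal input. The striatal inputs of animals 974 and 971 were the shallowest, with 4.15 and 5.79 M fragments. Levels below are FPKM, fragments counted on a gene per unit of its length and of library depth, divided by a scaling factor per library, and 4 values in a row stand in the order of animals 970, 971, 974 and 977. A log2 difference is on the scale of log2(scaled FPKM + 1), which understates the change of genes at low levels, and a member was called where limma's adjusted p was under 0.05. The p-values measure the spread of libraries around their group means, pooled over the 4 groups and with no term for the animal. The spread of the shallow striatal inputs thus enters the hippocampal tests too. In RNA of a whole region, fewer cells of a type and less RNA per cell cannot be told apart.

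Promoter sequences of 4 of the 22 members with a RefSeq window are shown first, as examples of genes outside the clusters. Cdh20 and Cdh10 were higher in the IP of both regions, while Pcdh20 and Pcdh19 were higher in the IP in the striatum and lower in the hippocampus, with the striatal call of Pcdh19 lost in some alternatives. Each run is the 250 bases before the RefSeq start of the gene, in build GRCm38.p6, written 5′ to 3′ on the strand of the gene. Capitals mark matches, on either strand, to TATAAA (the TATA box), CCAAT (the CCAAT box), GGGCGG (the GC box), CANNTG (the E-box), AACAAT (a Sox-type site) and TTGGC (a half-site of nuclear factor I).
Cdh20 at chr1:104768270-104768519, plus strand: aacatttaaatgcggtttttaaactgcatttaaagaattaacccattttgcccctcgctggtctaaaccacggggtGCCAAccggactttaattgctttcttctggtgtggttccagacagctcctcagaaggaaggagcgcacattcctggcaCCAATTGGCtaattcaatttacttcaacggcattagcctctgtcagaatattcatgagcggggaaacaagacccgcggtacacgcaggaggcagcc
Cdh10 at chr15:18820079-18820328, plus strand: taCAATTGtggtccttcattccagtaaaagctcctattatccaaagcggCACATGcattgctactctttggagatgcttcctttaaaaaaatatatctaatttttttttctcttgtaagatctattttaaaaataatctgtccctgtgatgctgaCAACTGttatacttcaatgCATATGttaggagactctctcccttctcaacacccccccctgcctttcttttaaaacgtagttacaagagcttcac
Pcdh20 at chr14:88471397-88471646, minus strand: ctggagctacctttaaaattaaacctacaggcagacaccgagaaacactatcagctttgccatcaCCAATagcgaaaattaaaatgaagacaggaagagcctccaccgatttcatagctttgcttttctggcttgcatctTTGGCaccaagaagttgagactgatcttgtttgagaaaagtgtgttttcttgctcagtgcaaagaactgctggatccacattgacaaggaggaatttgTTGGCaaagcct
Pcdh19 at chrX:133688994-133689243, minus strand: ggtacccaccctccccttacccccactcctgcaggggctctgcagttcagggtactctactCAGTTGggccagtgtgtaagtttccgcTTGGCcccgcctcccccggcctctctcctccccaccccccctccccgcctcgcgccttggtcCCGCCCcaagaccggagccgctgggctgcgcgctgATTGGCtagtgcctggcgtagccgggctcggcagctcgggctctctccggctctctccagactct

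The Cdh20 window held 2 matches to CCAAT, 1 to CANNTG and 2 to TTGGC, of which both CCAAT matches, the E-box and 1 nuclear factor I half-site overlapped in the stretch CCAATTGGC. The Cdh10 window held 4 matches to CANNTG and none to the other motifs, in a sequence with 36.8% G and C. This window lies inside the Cdh10 gene as annotated by GENCODE vM21, downstream of its start at chr15:18818947. The Pcdh20 window held 1 match to CCAAT and 2 to TTGGC. The Pcdh19 window held 1 match to CCAAT, 1 to GGGCGG, 1 to CANNTG and 2 to TTGGC, with CCAAT and TTGGC overlapping, and had 69.2% G and C. The other members shown had 47.6% (Cdh20) and 42.4% (Pcdh20), against a median of 52.4% over 32851 windows of all genes. RefSeq windows were searched for the 22 members off chromosome 18 that had one. Members on chromosome 18 were left out of these counts, namely all annotated clustered members with Cdh2, Pcdh1 and Pcdh12. CCAAT was in 14 of the 22 and in 33.8% of all windows, TTGGC in 13 and in 41.5%, and CANNTG in 12 and in 66.2%. GGGCGG was in 9 of the 22 and in 32.7% of all windows, TATAAA in 2 and in 12.4%, and AACAAT in 0 and in 9.42%. A match of this kind is a description of letters, not a binding site.

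Of the 93 members, 71 had an FPKM of at least 1 in at least 4 libraries and were tested among 13470 genes, and 41 reached a mean of 5 scaled FPKM in at least 1 group. Under the filter were 22 members, 12 of the 15 alpha members among them. These were Pcdha1, Pcdha2, Pcdha3, Pcdha4, Pcdha4-g, Pcdha6, Pcdha7, Pcdha8, Pcdha9, Pcdha10, Pcdha11, Pcdhac1 and Pcdhb1, with Cdh1, Cdh3, Cdh15, Cdh16, Cdh17, Cdh23, Cdh26, Pcdh12 and Pcdh15. The highest level that any of the 22 reached in a library was 1.33 scaled FPKM, of Pcdha8, and Pcdha4-g was listed at 0 in all 16. Cdh1 (E-cadherin, the cadherin of epithelia) reached at most 0.0893 and Cdh15 (M-cadherin, of muscle) 0.527 scaled FPKM. GENCODE vM21 held 91 of the 93 symbols, and 60 of them lay on chromosome 18, the 57 annotated clustered members with them. The 13 annotated alpha members shared 28.5 to 54.9% of their exonic bases with other members, and the 22 gamma members 27.8 to 66.8%, whereas 2 of 22 beta members shared any and all members outside the clusters shared none. How the authors' counting treated fragments in the shared exons is not given in the sources used here, so the levels of single alpha and gamma members are uncertain.

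In the striatum, 27 members were higher and 24 lower in the IP than in the input, and 20 of the 71 were not called. Of all 13470 genes tested, 65.1% were called, 32.6% higher and 32.5% lower, and of the members 71.8% were called. Every IP was above every input for 23 of the 71 members, where this held for 26.3% of all genes tested, and below for 17, where it held for 25.8%. In the hippocampus, 38 members were higher and 16 lower, against 65.3% of all genes called, 31.8% higher and 33.4% lower. There 35 members had every IP above every input, against 34.2% of all genes, and 18 every IP below, against 35.4%. Without animal 971 the members lower in hippocampal IP numbered 10. No gamma protocadherin was lower in the IP of either region, none of the 3 alpha protocadherins tested was higher, and the cadherins split gene by gene. Of the alpha members tested, Pcdha5 and Pcdha12 met the filter through input libraries alone. The median log2 difference of the 71 members was -0.04 in the striatum and 0.48 in the hippocampus, where the median of all genes was -0.01 and -0.05. Without any scaling between libraries, the median of all genes moved to -0.25 in the striatum and -0.51 in the hippocampus. The share of all calls that were higher was then 36.1% in the striatum, where it was 50.1% with scaling, and 26.0% in the hippocampus, where it was 48.8%. Members then counted 24 higher and 27 lower in the striatum, and 27 higher and 23 lower in the hippocampus.

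**Figure D1:**
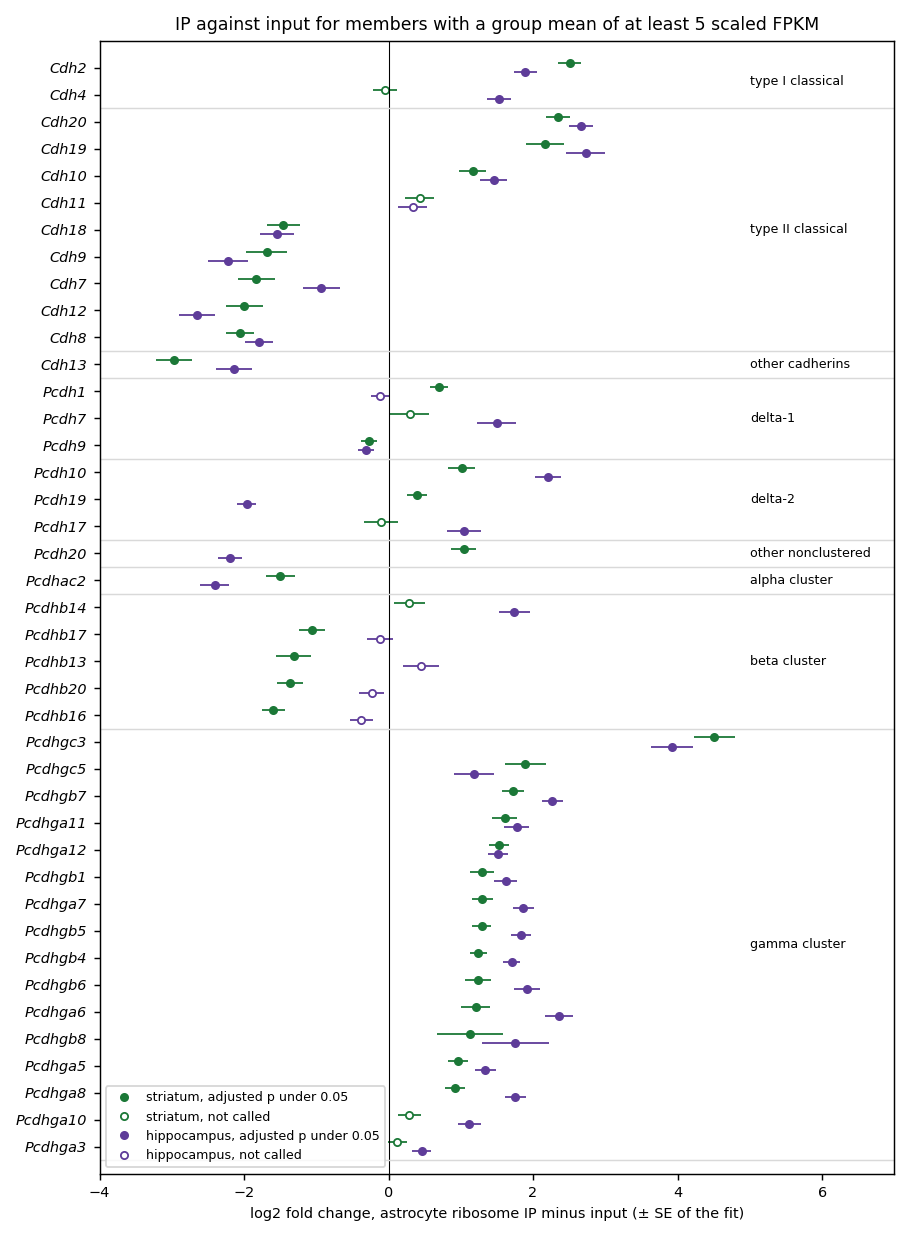
Log2 difference of IP minus input, in log2(scaled FPKM + 1) units, for the 41 members that reached 5 scaled FPKM on average in a group, grouped by family. Circles are striatum (green) and hippocampus (purple), filled where called, and bars are the SE of the fit. Gamma members lie right of 0 with Pcdhgc3 farthest, at 4.51 and 3.92, and Pcdh19 and Pcdh20 lie right of 0 in the striatum and left of it in the hippocampus.

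The gamma cluster held the highest level of any member. Of its 22 members, 19 (86.4%) were higher in striatal IP and 21 (95.5%) in hippocampal IP than in the input, and none was lower in either. Among all genes 32.6% were higher in striatal IP and 31.8% in hippocampal IP. All 22 share exonic bases with other members. The calls are thus not separate observations, and how shared fragments were counted bears on the calls, sums and shares given here. The summed level of the cluster was 387 ± 81.9 scaled FPKM in striatal IP, 74.5 ± 13.7 in striatal input, 406 ± 32.7 in hippocampal IP and 74.5 ± 6.56 in hippocampal input (SD, n = 4 each). Pcdhgc3, a C-type isoform encoded at the end of the cluster, made up 54.4 ± 2.65% of the gamma sum in striatal IP, 11.6 ± 4.44% in striatal input, 51.0 ± 1.08% in hippocampal IP and 17.1 ± 0.762% in hippocampal input. Without Pcdhgc3, the gamma sum was 175 ± 27.7 in striatal IP, 65.4 ± 9.005 in striatal input, 199 ± 14.4 in hippocampal IP and 61.7 ± 5.08 in hippocampal input. With no scaling, 17 gamma members were higher in each region and none was lower.

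Pcdhgc3 had 248, 268, 157 and 174 scaled FPKM in striatal IP, against 11.7, 7.13, 3.45 and 14.02 in striatal input. Hippocampal levels were 217, 228, 184 and 198 in the IP, against 13.9, 13.5, 10.5 and 13.1 in the input. Every IP was far above every input of its region, and the lowest value of all was the striatal input of animal 974. The log2 difference was 4.51 ± 0.29 in the striatum (SE, adjusted p = 1.06e-09) and 3.92 ± 0.29 in the hippocampus (adjusted p = 3.97e-09), ratios of means of 23.3 and 16.2. Leaving out striatal inputs 971 and 974 gave 3.89 in the striatum. The C-type isoform Pcdhgc5 had 44.9, 51.9, 34.997 and 34.4 in striatal IP, against 15.5, 8.30, 4.59 and 17.9 in striatal input. It had 39.3, 39.5, 42.4 and 41.3 in hippocampal IP, against 16.5, 19.2, 14.5 and 19.4 in hippocampal input. The groups did not overlap, and among the striatal inputs animals 971 and 974 were low. Its log2 difference was 1.89 ± 0.28 (adjusted p = 1.71e-05) in the striatum, or 1.23 without those 2 inputs, and 1.19 ± 0.28 (adjusted p = 0.00136) in the hippocampus. The hippocampal call was lost with no scaling, at 0.59 (adjusted p = 0.116). The third C-type isoform, Pcdhgc4, known in mice for its part in neuron survival, was low, at 2.48 ± 0.647 in striatal IP, 0.668 ± 0.575 in striatal input, 2.88 ± 0.573 in hippocampal IP and 0.995 ± 0.186 in hippocampal input. It was called higher in the IP of both regions, by 1.11 in the striatum, or 0.66 without striatal inputs 971 and 974, and 0.95 in the hippocampus.

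Among the A-type gamma isoforms, whose first exons are interleaved with those of the B-type, 8 reached the level for description. Pcdhga11 had 15.2, 15.97, 9.04 and 9.62 scaled FPKM in striatal IP, against 2.80, 4.21, 3.11 and 3.21 in striatal input, and a log2 difference of 1.60. Its hippocampal values were 16.8, 17.5, 13.8 and 13.8 in the IP, against 3.71, 4.13, 4.44 and 3.06 in the input, a difference of 1.77. Both regions thus separated without overlap. Pcdhga12 had 11.1, 12.3, 8.71 and 8.79 in striatal IP, against 2.33, 3.37, 3.08 and 2.73 in striatal input, and 8.53, 9.68, 8.27 and 9.21 in hippocampal IP, against 2.48, 3.04, 1.997 and 2.45 in hippocampal input. For Pcdhga7 the levels were 12.2, 12.3, 8.10 and 12.4 in striatal IP, against 2.94, 4.30, 4.21 and 4.47 in striatal input, and 13.4, 13.7, 11.1 and 13.6 in hippocampal IP, against 3.22, 2.44, 2.71 and 2.94 in hippocampal input. Neither overlapped in a region. Animal 974 was clearly the lowest in both IPs for Pcdhga7, but for Pcdhga12 it was close to animal 977 in striatal IP and to animal 970 in hippocampal IP. Pcdhga5 had 10.7, 11.7, 8.65 and 9.94 in striatal IP, against 4.41, 5.48, 5.47 and 3.73 in striatal input, and 11.6, 11.5, 9.68 and 9.49 in hippocampal IP, against 4.54, 3.16, 3.65 and 3.01 in hippocampal input. Pcdhga8 had 5.39, 5.92, 3.88 and 5.90 in striatal IP, against 2.74, 2.18, 1.68 and 2.69 in striatal input, and 7.86, 8.998, 7.77 and 8.13 in hippocampal IP, against 1.75, 1.58, 1.46 and 2.13 in hippocampal input. These 2 members also had every IP above every input.

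Pcdhga6 had 8.55, 8.49, 5.69 and 8.27 scaled FPKM in striatal IP, against 3.29, 4.55, 1.64 and 2.167 in striatal input, and 9.78, 9.39, 7.76 and 10.7 in hippocampal IP, against 1.20, 0.935, 0.797 and 1.20 in hippocampal input. Its striatal inputs spread widely, yet no group overlapped with its IP, and it rose by 1.20 in the striatum and 2.35 in the hippocampus. Pcdhga10 had 9.004, 4.97, 5.94 and 7.93 in striatal IP, against 5.13, 5.34, 6.36 and 4.82 in striatal input, where the groups overlapped and the difference of 0.29 was not called (adjusted p = 0.113). In the hippocampus it had 9.08, 7.07, 6.90 and 9.05 in the IP, against 3.30, 2.83, 2.92 and 3.51 in the input, and rose by 1.12. Pcdhga3 had 5.03, 6.54, 5.002 and 5.50 in striatal IP, against 4.99, 5.13, 4.08 and 5.84 in striatal input, which overlapped, and was not called (adjusted p = 0.435). Its hippocampal levels of 7.79, 6.47, 5.50 and 6.10 in the IP, against 4.75, 5.002, 3.80 and 4.10 in the input, were called, at 0.46. That was the lowest call of the cluster in the hippocampus, it was lost without animal 977 (adjusted p = 0.0895), and with no scaling it turned to -0.07 (adjusted p = 0.692). The 4 A-type members below the level for description, Pcdhga1, Pcdhga2, Pcdhga4 and Pcdhga9, had group means of up to 4.44 ± 1.21 (Pcdhga2, striatal IP). All but Pcdhga9 were called higher in the IP of both regions. Pcdhga4 averaged 3.91 ± 0.707 in striatal IP, 1.06 ± 0.385 in striatal input, 3.57 ± 0.361 in hippocampal IP and 1.21 ± 0.0607 in hippocampal input. It rose by 1.26 in the striatum and 1.04 in the hippocampus. Pcdhga9 was called in neither, with adjusted p of 0.938 in the striatum and 0.944 in the hippocampus.

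Of the B-type gamma isoforms, Pcdhgb1 had 13.8, 13.4, 9.89 and 12.1 scaled FPKM in striatal IP, against 4.98, 4.67, 3.54 and 4.47 in striatal input, and 22.3, 17.7, 13.6 and 19.2 in hippocampal IP, against 6.39, 4.84, 3.88 and 5.88 in hippocampal input. It rose by 1.30 in the striatum and 1.62 in the hippocampus. Pcdhgb7 had 10.4, 9.65, 6.90 and 8.13 in striatal IP, against 2.31, 1.28, 1.76 and 2.54 in striatal input, and 11.6, 11.6, 9.32 and 11.6 in hippocampal IP, against 1.66, 1.43, 1.54 and 1.37 in hippocampal input. For Pcdhgb5 the values were 7.96, 7.71, 6.12 and 7.54 in striatal IP, against 2.9999, 2.50, 1.98 and 2.21 in striatal input, and 11.1, 9.47, 7.64 and 8.21 in hippocampal IP, against 2.27, 1.47, 1.83 and 1.77 in hippocampal input. No IP of these members fell to an input level, and their differences ran from 1.29 (Pcdhgb5, striatum) to 2.27 (Pcdhgb7, hippocampus). Pcdhgb4 had 5.86, 5.88, 4.69 and 5.71 in striatal IP, against 1.78, 1.51, 2.11 and 1.69 in striatal input, and 7.27, 7.50, 5.51 and 7.74 in hippocampal IP, against 1.43, 1.43, 1.32 and 1.58 in hippocampal input. Pcdhgb6 had 7.35, 4.54, 4.29 and 5.35 in striatal IP, against 1.86, 0.9995, 1.59 and 2.42 in striatal input, and 7.23, 6.46, 6.05 and 5.48 in hippocampal IP, against 0.565, 0.956, 1.02 and 1.23 in hippocampal input. Both again separated fully in each region.

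Pcdhgb8 was the exception by animal. It had 7.86, 8.13, 5.07 and 1.69 scaled FPKM in striatal IP, against 1.81, 1.40, 2.53 and 1.45 in striatal input, and 10.3, 10.3, 8.43 and 1.23 in hippocampal IP, against 1.51, 1.04, 1.43 and 0.667 in hippocampal input. Animal 977 was the lowest in both IPs and in the hippocampal input, so the groups overlapped in each region. The difference was 1.13 ± 0.46 in the striatum (adjusted p = 0.0415) and 1.75 ± 0.46 in the hippocampus (adjusted p = 0.00329). Pcdhgb8 was not called in the striatum without animal 970 (adjusted p = 0.17), 971 (0.216) or 974 (0.102), nor without striatal inputs 971 and 974 (0.103). Pcdhgb2, the last B-type member, stood at 3.31 ± 0.561 in striatal IP, 1.46 ± 0.354 in striatal input, 3.74 ± 0.116 in hippocampal IP and 1.42 ± 0.273 in hippocampal input, and was called higher in both regions.

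**Figure D2:**
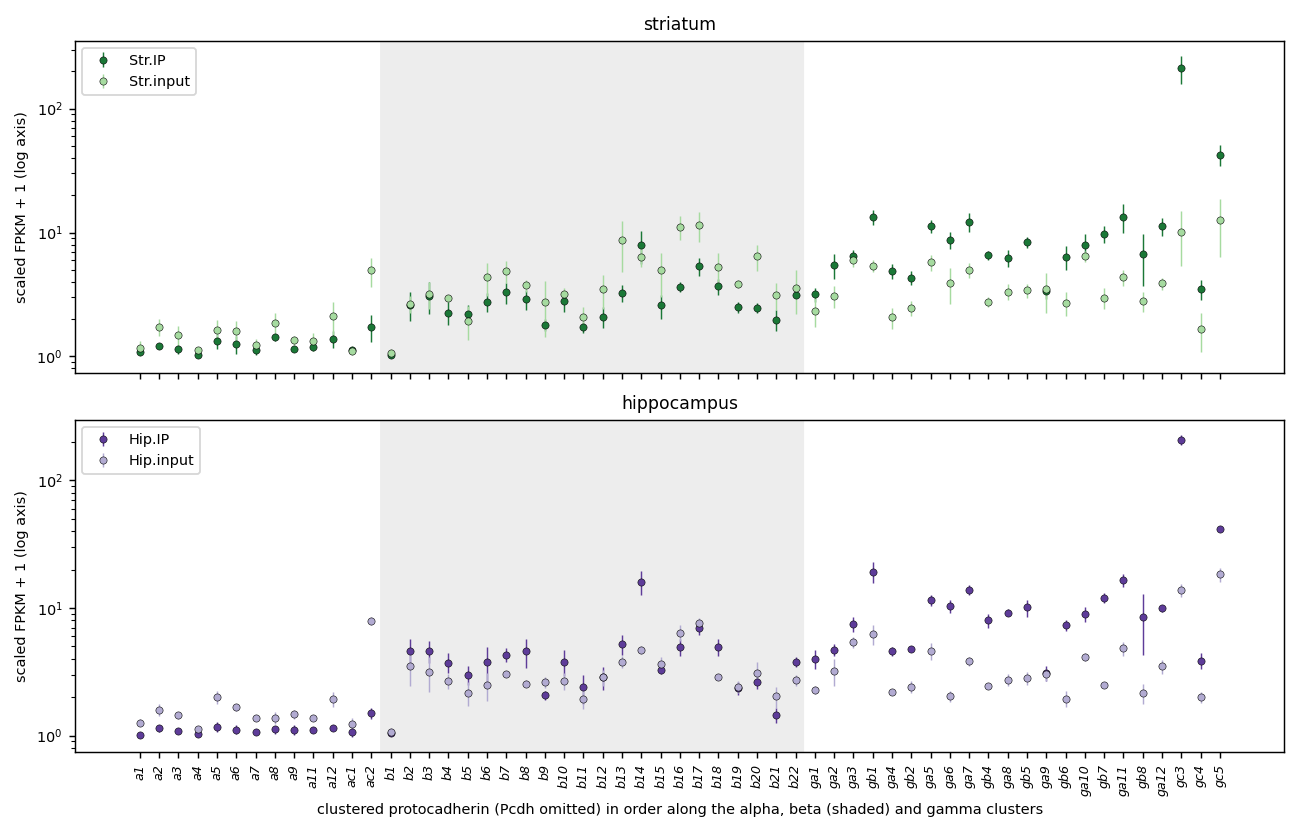
Mean scaled FPKM + 1, on a logarithmic axis, of the clustered protocadherins in their order along the alpha, beta (shaded) and gamma clusters, with bars for the SD of 4 libraries. Striatal IP and input are in the upper panel and hippocampal IP and input in the lower one. Alpha members are low throughout, and Pcdhgc3 stands above all others in the IP, at a mean of 212 scaled FPKM in the striatum and 207 in the hippocampus.

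In the striatum, 12 of the 21 beta members tested (57.1%) were lower in the IP and none was higher, where 32.5% of all genes were lower and 32.6% higher. In the hippocampus, 7 (33.3%) were higher in the IP and 1, Pcdhb21 (4.76%), was lower, where 31.8% of all genes were higher and 33.4% lower, so that the share higher was near that of all genes. The summed level was 43.0 ± 6.93 scaled FPKM in striatal IP, 79.0 ± 16.6 in striatal input, 70.3 ± 12.9 in hippocampal IP and 48.1 ± 5.34 in hippocampal input (SD, n = 4 each). The summed striatal input was 68.6, 95.1, 91.1 and 61.2 in the 4 animals, highest in the 2 shallow libraries of animals 971 and 974. Without these 2, the striatum had 8 beta members lower. With no scaling, the hippocampus had 2 beta members higher and 7 lower and the striatum 14 lower, so the direction of the family in the hippocampus rests on the scaling. Without animal 971 the striatum had 7 lower, and without animal 970, 971 or 977 the hippocampus had 3 higher.

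Pcdhb14 was the highest beta member in the hippocampal IP. It had 8.67, 8.39, 3.62 and 7.04 scaled FPKM in striatal IP, against 4.88, 6.85, 4.26 and 5.34 in striatal input, which overlapped, and it was not called (adjusted p = 0.259), though without animal 974 it was called higher (0.43, adjusted p = 0.0169). Its values in the hippocampus were 18.1, 16.9, 10.5 and 14.4 in the IP, against 4.22, 3.34, 3.54 and 3.73 in the input, with no overlap and a rise of 1.74 ± 0.21 (adjusted p = 2.15e-06). Pcdhb16 had 2.79, 2.14, 2.64 and 3.02 in striatal IP, against 9.27, 10.1, 13.5 and 7.73 in striatal input, all lower in the IP, and fell by 1.59 on the log2 scale (adjusted p = 2.68e-07). Its hippocampal levels were 4.32, 3.996, 2.85 and 4.61 in the IP, against 6.76, 5.01, 5.12 and 4.73 in the input. The IPs were all lower there too, at -0.38, but the difference was not called (adjusted p = 0.051). It was called under other settings, among them no filter (adjusted p = 0.0386), a pseudocount of 0.1 (0.0483), no scaling (6.94e-05), upper-quartile scaling (0.0114) and a mean FPKM of at least 5 (0.0111). So it was in a fit of the 2 hippocampal groups alone (0.0306), without animal 977 (0.0123) and without striatal inputs 971 and 974 (0.00556). Pcdhb17 had 5.46, 4.71, 3.66 and 3.63 in striatal IP, against 6.69, 12.4, 13.5 and 9.21 in striatal input, a fall without overlap, with a log2 difference of -1.07. In the hippocampus its IPs had 6.42, 6.08, 4.84 and 6.50, against 7.59, 6.32, 5.72 and 6.71 in the inputs, which overlapped (adjusted p = 0.558), and among the alternatives it was called lower only with no scaling (-0.66, adjusted p = 0.000646).

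Pcdhb13 had 2.51, 2.63, 1.48 and 2.38 scaled FPKM in striatal IP, against 4.82, 9.44, 12.2 and 4.11 in striatal input, and 4.28, 5.42, 3.26 and 3.89 in hippocampal IP, against 2.80, 3.36, 2.34 and 2.73 in hippocampal input. The striatal inputs of animals 971 and 974 were the highest of all its values, the striatal groups did not overlap, and the log2 difference was -1.31 ± 0.25 (adjusted p = 0.000202), or -0.78 (adjusted p = 0.00123) without these 2 inputs. The hippocampal groups overlapped, and the difference of 0.44 was not called (adjusted p = 0.126). Without the same 2 striatal inputs in the fit it was called at 0.34 (adjusted p = 0.0387), and in a fit of the 2 hippocampal groups alone at 0.44 (adjusted p = 0.0124), while with no scaling it was -0.04. Pcdhb20 had 1.67, 1.43, 1.13 and 1.57 in striatal IP, against 4.94, 5.98, 7.16 and 3.59 in striatal input, and 1.58, 1.23, 1.79 and 1.89 in hippocampal IP, against 2.76, 1.66, 2.54 and 1.52 in hippocampal input. It fell by 1.36 on the log2 scale in the striatum with no overlap, and its hippocampal groups overlapped (adjusted p = 0.252), with a call of lower without animal 977 (-0.47, adjusted p = 0.0402) and with no scaling (-0.63, adjusted p = 0.00256). The other 16 beta members tested had group means of at most 4.23 ± 1.61 (Pcdhb18, striatal input).

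Of the 3 alpha protocadherins tested, 2 were lower in the IP in the striatum and 3 in the hippocampus, where 32.5% and 33.4% of all genes were lower. The alpha sum was 3.41 ± 1.49 scaled FPKM in striatal IP, 10.02 ± 1.14 in striatal input, 1.74 ± 0.611 in hippocampal IP and 13.3 ± 0.327 in hippocampal input. Pcdhac2, the C-type alpha isoform known for its role in the axons of serotonin neurons in mice, was the one alpha member at a level for description. It had 0.360, 0.378, 1.11 and 1.08 in striatal IP, against 4.22, 4.91, 2.06 and 4.57 in striatal input. Its hippocampal values were 0.352, 0.494, 0.722 and 0.428 in the IP, against 6.44, 7.07, 7.61 and 6.58 in the input. All IPs were lower than all inputs of their region, and the log2 difference was -1.50 ± 0.20 in the striatum (adjusted p = 5.36e-06) and -2.41 ± 0.20 in the hippocampus (adjusted p = 1.77e-08). Its IP level was 23.4% of the input level on average in the striatum, with a range of 7.70 to 53.8%, where the median neuron marker was at 7.48 to 13.8%. In the hippocampus it was 7.11%, with a range of 5.46 to 9.49%, where the median neuron marker was at 5.58 to 10.2%. Pcdha12 was lower in the IP of both regions and Pcdha5 in that of the hippocampus, at group means of up to 1.11 ± 0.631 (Pcdha12, striatal input). Both met the filter through input libraries alone, with every IP under an FPKM of 1, so their calls of lower follow in part from the filter.

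Of the type I classical cadherins, Cdh2 and Cdh4 were tested. Cdh2 is N-cadherin, the adhesion protein of neural cells at synapses and glial contacts. It had 102, 113, 68.3 and 81.7 scaled FPKM in striatal IP, against 13.4, 13.6, 19.9 and 13.7 in striatal input. In the hippocampus it had 92.9, 88.99, 74.5 and 90.7 in the IP, against 23.1, 21.4, 22.9 and 22.9 in the input. All IPs were far above the inputs, with animal 974 lowest in both IPs and highest in striatal input. The log2 difference was 2.51 ± 0.16 in the striatum (adjusted p = 8.48e-10) and 1.89 ± 0.16 in the hippocampus (adjusted p = 1.65e-08), ratios of means of 6.02 and 3.84.

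Cdh4, or R-cadherin, first described in the retina, lies at chr2:179442431-179899373 on the plus strand (GRCm38). It had 2.82, 2.26, 2.97 and 3.14 scaled FPKM in striatal IP, against 3.60, 2.37, 1.84 and 4.31 in striatal input, and the groups overlapped. The difference of -0.05 ± 0.16 was not called (adjusted p = 0.81), but it was -0.40 without striatal inputs 971 and 974 (adjusted p = 0.0157). For the hippocampus the values were 7.14, 5.86, 5.92 and 6.25 in the IP, against 1.66, 1.39, 1.38 and 1.67 in the input. There every IP was above every input, and Cdh4 rose by 1.53 ± 0.16 (adjusted p = 3.97e-07).

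Of 12 type II cadherins tested, 3 (25%) were higher and 6 (50%) lower in striatal IP, against 32.6% of all genes higher and 32.5% lower. In hippocampal IP 3 (25%) were higher and 7 (58.3%) lower, against 31.8% and 33.4% of all genes. The 3 higher ones, Cdh10, Cdh19 and Cdh20, were the same in both regions. On chromosome 1, Cdh20 (chr1:104768529-104995481), Cdh7 (chr1:109982431-110140157) and Cdh19 (chr1:110888326-110977584) lie in that order, and Cdh7, the one in the middle, was lower in the IP. Chromosome 15 holds Cdh6, Cdh9, Cdh10, Cdh12 and Cdh18, of which Cdh10 (chr15:18818947-19014236) was higher, and the members on either side of it, Cdh9 (chr15:16728756-16857094) and Cdh12 (chr15:20449265-21589533), were lower, in both regions. These coordinates are of GRCm38.

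Cdh20, a cadherin of neural crest and neural tube in the embryo, had 44.8, 36.5, 22.8 and 27.7 scaled FPKM in striatal IP, against 5.76, 5.91, 5.62 and 4.75 in striatal input. It had 46.97, 41.3, 33.9 and 33.8 in hippocampal IP, against 4.98, 5.09, 5.37 and 5.66 in hippocampal input. The inputs were all between 4.75 and 5.91 and the IPs from 22.8 to 47.0, a rise of 2.34 ± 0.17 in the striatum (adjusted p = 4.57e-09) and 2.66 ± 0.17 in the hippocampus (adjusted p = 7.71e-10). Cdh19, known from Schwann cell precursors, had 18.5, 19.4, 6.69 and 11.1 in striatal IP, against 2.04, 3.18, 1.31 and 2.13 in striatal input. In the hippocampus it had 15.3, 23.8, 14.4 and 15.9 in the IP, against 1.87, 2.10, 1.65 and 1.31 in the input. No groups overlapped, and it rose by 2.16 ± 0.27 in the striatum (adjusted p = 2.44e-06) and 2.73 ± 0.27 in the hippocampus (adjusted p = 1.34e-07). Cdh10, whose RefSeq window is shown above, had 30.6, 32.99, 20.5 and 26.7 in striatal IP, against 9.97, 12.03, 17.5 and 8.67 in striatal input. Its hippocampal levels were 35.2, 41.4, 25.7 and 33.5 in the IP, against 12.5, 11.3, 10.9 and 11.8 in the input. Animal 974 had the lowest IPs and the highest striatal input but did not close the gap, and Cdh10 rose by 1.16 ± 0.19 in the striatum (adjusted p = 5.57e-05) and 1.45 ± 0.19 in the hippocampus (adjusted p = 4.57e-06).

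Cdh11, at first described in bone-forming cells, had 45.2, 47.8, 35.2 and 39.4 scaled FPKM in striatal IP, against 24.5, 38.4, 45.9 and 20.2 in striatal input, and 48.9, 48.3, 40.8 and 45.4 in hippocampal IP, against 34.7, 34.8, 42.3 and 33.1 in hippocampal input. The groups overlapped in both regions, with the inputs of animal 974 highest, and neither difference was called (adjusted p = 0.0673 in the striatum and 0.151 in the hippocampus). Without striatal inputs 971 and 974, the striatal difference was 0.86 and was called (adjusted p = 3.63e-05). It was also called without animal 974 alone, at 0.69 (adjusted p = 0.00528). In the hippocampus it was 0.33 with scaling and -0.28 with none, and was called in neither case, though a fit of the 2 hippocampal groups alone called it higher (adjusted p = 0.00805).

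Cdh8, Cdh9, Cdh12, Cdh7 and Cdh18, cadherins known from particular kinds of neurons, were lower in the IP of both regions. Cdh9, which acts at mossy fibre synapses of the mouse hippocampus, had 3.08, 3.52, 10.5 and 5.95 scaled FPKM in striatal IP, against 16.7, 22.9, 22.8 and 14.7 in striatal input. It had 2.21, 1.81, 4.71 and 3.23 in hippocampal IP, against 16.2, 16.01, 20.000 and 15.8 in hippocampal input. Animal 974 was the highest of the IPs in each region, though still below every input. Cdh8 had 0.997, 0.906, 1.996 and 1.57 in striatal IP, against 7.20, 8.55, 13.2 and 6.86 in striatal input, and 0.400, 0.355, 0.899 and 0.841 in hippocampal IP, against 4.56, 4.96, 4.11 and 4.61 in hippocampal input. Cdh12 had 0.401, 0.146, 0.756 and 0.633 in striatal IP, against 2.52, 5.62, 9.05 and 3.96 in striatal input, and 0.361, 0.879, 1.31 and 0.941 in hippocampal IP, against 10.6, 10.2, 12.03 and 9.52 in hippocampal input. The groups of both genes were apart in each region. Cdh7 had 1.04, 1.30, 3.64 and 3.80 in striatal IP, against 10.2, 12.02, 13.6 and 6.88 in striatal input, and 0.129, 0.122, 0.487 and 0.339 in hippocampal IP, against 1.13, 1.43, 1.35 and 1.76 in hippocampal input. Cdh18 had 1.12, 0.985, 2.42 and 2.58 in striatal IP, against 4.41, 7.38, 7.64 and 6.42 in striatal input, and 0.450, 0.192, 1.39 and 0.392 in hippocampal IP, against 3.78, 2.94, 4.23 and 3.28 in hippocampal input. For both, the striatal IPs of animals 974 and 977 were the highest IPs, and no IP reached an input of its region.

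The log2 differences of these 5 genes were -2.05 (Cdh8), -1.99 (Cdh12), -1.83 (Cdh7), -1.69 (Cdh9) and -1.45 (Cdh18) in the striatum, with adjusted p of at most 6.42e-05. In the hippocampus they were -1.79 (Cdh8), -2.65 (Cdh12), -0.93 (Cdh7), -2.22 (Cdh9) and -1.55 (Cdh18), with adjusted p of at most 0.0046. With a pseudocount of 4, Cdh7 was not called in the hippocampus (adjusted p = 0.0511). IP levels as a percentage of the input were averaged over the animals. In the hippocampus the mean was 8.19% for Cdh12, 14.0% for Cdh8, 15.8% for Cdh18, 17.2% for Cdh9 and 18.8% for Cdh7. The median neuron marker there was at 5.58 to 10.2%. In the striatum the mean was 10.7% for Cdh12, 15.6% for Cdh8, 25.7% for Cdh7, 27.6% for Cdh18 and 30.1% for Cdh9. The median neuron marker there was at 7.48 to 13.8%. The part of neuronal RNA in these IP levels was not tested. Of the type II members under the level for description, Cdh6 was lower in striatal IP, and Cdh22 and Cdh24 were lower in hippocampal IP. Cdh24 was not called there without animal 971 (adjusted p = 0.0582) or with a pseudocount of 0.1 (0.0535). Without its hippocampal inputs, at 1.69 ± 0.382 scaled FPKM, Cdh24 would not have met the filter.

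Cdh13, or T-cadherin, is held in the membrane by a lipid anchor and has no tail for catenins. It had 3.40, 2.98, 8.16 and 7.14 scaled FPKM in striatal IP, against 46.98, 42.02, 52.5 and 44.2 in striatal input. Its hippocampal values were 2.62, 1.30, 3.54 and 2.01 in the IP, against 11.6, 12.6, 15.2 and 14.5 in the input. It was lower in every IP than in every input of its region, with a log2 difference of -2.97 ± 0.25 in the striatum (adjusted p = 2.35e-08) and -2.14 ± 0.25 in the hippocampus (adjusted p = 9.85e-07). Its IP level as a percentage of the input, averaged over the animals, was 11.5% in the striatum and 17.5% in the hippocampus.

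**Figure D3:**
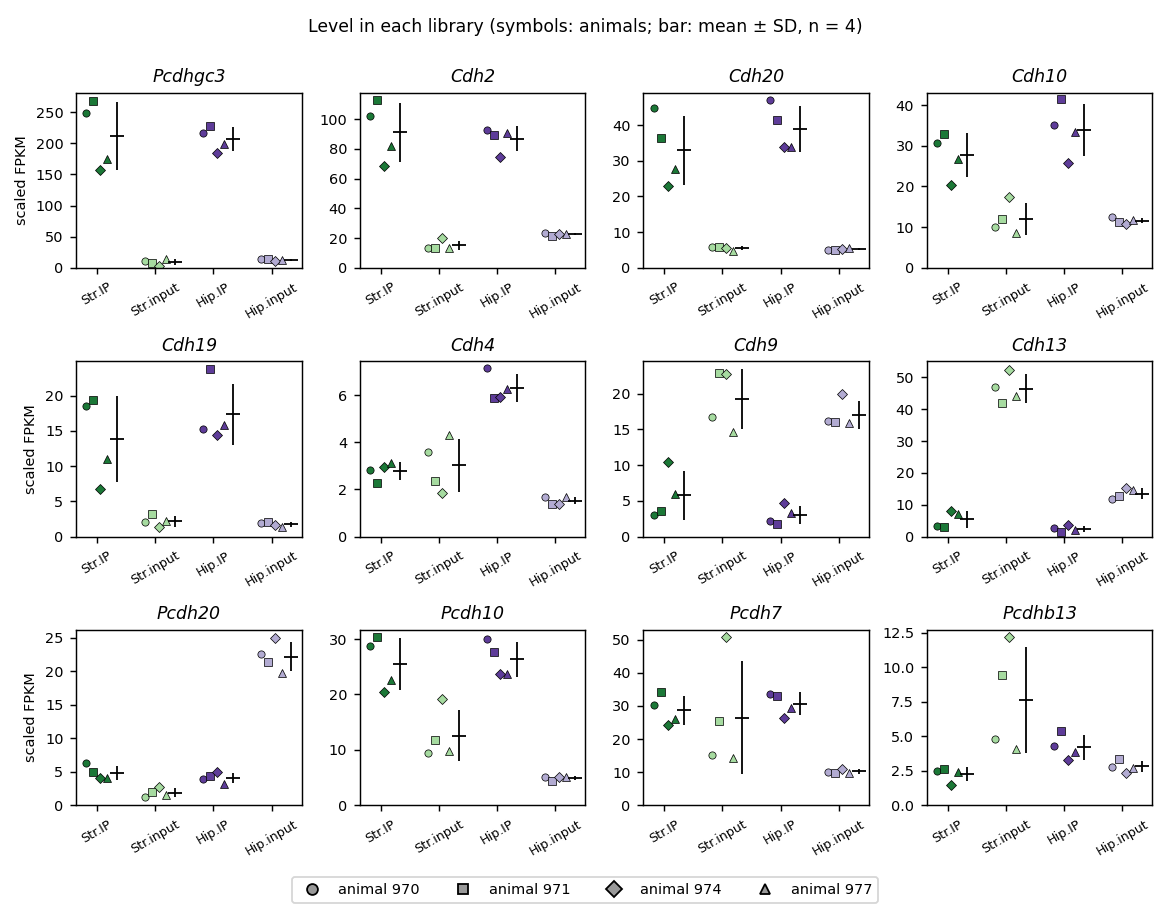
Scaled FPKM, on linear axes that start at 0, of 12 members in each library, with a symbol per animal and a cross with a bar for the mean ± SD of 4 libraries, for striatal IP, striatal input, hippocampal IP and hippocampal input. Pcdhgc3, Cdh2 and Cdh20 are higher in both IPs, Cdh13 and Cdh9 are lower in both, and the hippocampal inputs of Pcdh20, from 19.8 to 24.97, stand above all its other values.

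Of the delta-1 protocadherins, Pcdh1, which also acts in airway epithelium, had 75.6, 77.5, 51.3 and 62.5 scaled FPKM in striatal IP, against 38.01, 43.97, 40.2 and 38.5 in striatal input. Levels in the hippocampus were 105, 92.1, 84.9 and 92.5 in the IP, against 99.1, 103, 99.6 and 103 in the input. The striatal groups did not overlap, and it rose there by 0.70 ± 0.13 (adjusted p = 0.000128). The hippocampal groups overlapped, and the difference was not called (adjusted p = 0.438), but it was called lower with no scaling (-0.73, adjusted p = 1.04e-06), upper-quartile scaling (-0.24, adjusted p = 0.0389) and a mean FPKM of at least 5 (-0.26, adjusted p = 0.0295), and without striatal inputs 971 and 974 (-0.24, adjusted p = 0.0449). Pcdh7 had 30.3, 34.2, 24.4 and 26.2 in striatal IP, against 15.1, 25.5, 50.9 and 14.3 in striatal input. Its hippocampal levels were 33.7, 33.1, 26.3 and 29.4 in the IP, against 10.2, 9.65, 11.1 and 9.86 in the input. The striatal input of animal 974 was the highest value of all, and the striatal difference of 0.29 ± 0.27 was not called (adjusted p = 0.369). It became 0.89 (adjusted p = 1.27e-05) without striatal inputs 971 and 974 and 0.72 (adjusted p = 0.00393) without animal 974. The hippocampal rise was 1.49 ± 0.27 (adjusted p = 0.000152).

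Pcdh9 had 6.99, 8.37, 6.49 and 6.74 scaled FPKM in striatal IP, against 7.97, 8.79, 10.6 and 8.01 in striatal input, and 8.07, 7.44, 7.28 and 6.99 in hippocampal IP, against 9.49, 8.66, 10.7 and 9.18 in hippocampal input. The difference was small in both regions, -0.27 ± 0.11 in the striatum (adjusted p = 0.0454) and -0.31 ± 0.11 in the hippocampus (adjusted p = 0.0218), and the striatal groups overlapped. The striatal call did not hold with the animal as a block (adjusted p = 0.0512), without animal 970 (0.0846), 974 (0.204) or 977 (0.0594), and without striatal inputs 971 and 974 (0.186). In the hippocampus Pcdh9 was not called without animal 970 (adjusted p = 0.0516). Pcdh11x, an X-linked member, was low, at 1.38 ± 0.233 in striatal IP, 2.67 ± 0.697 in striatal input, 0.952 ± 0.139 in hippocampal IP and 0.427 ± 0.0797 in hippocampal input. It was lower in the IP in the striatum, at -0.61, and higher in the hippocampus, at 0.45. Without animal 971 (adjusted p = 0.0721) or 977 (0.0676) and with no scaling (0.0918) it was not called in the hippocampus. Before scaling, only its striatal libraries reached an FPKM of 1. The hippocampal call of Pcdh11x, its difference between the inputs and its interaction thus involve levels under the filter.

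Among the delta-2 protocadherins, Pcdh10, which binds the WAVE regulators of actin, had 28.7, 30.3, 20.5 and 22.6 scaled FPKM in striatal IP, against 9.41, 11.7, 19.3 and 9.71 in striatal input. It had 30.1, 27.6, 23.8 and 23.8 in hippocampal IP, against 5.02, 4.44, 5.16 and 5.02 in hippocampal input. Every IP was above every input of its region, and it rose by 1.01 ± 0.18 in the striatum (adjusted p = 0.000142) and 2.20 ± 0.18 in the hippocampus (adjusted p = 1.91e-08). Pcdh17, known from synapses of the mouse basal ganglia, had 34.6, 40.1, 18.3 and 32.1 in striatal IP, against 28.6, 42.3, 42.4 and 21.7 in striatal input. The groups overlapped, with animals 971 and 974 highest among the inputs, and the difference of -0.11 was not called (adjusted p = 0.698). With no scaling it was -0.42 and was called (adjusted p = 0.0382), and without striatal inputs 971 and 974 it was 0.24 (adjusted p = 0.378). In the hippocampus it had 42.4, 41.5, 30.8 and 34.9 in the IP, against 22.1, 16.6, 16.4 and 15.8 in the input, and rose by 1.04 ± 0.23 (adjusted p = 0.000958).

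Pcdh19, the X-linked protocadherin whose variants cause an epilepsy in humans, lies at chrX:133582860-133688987 on the minus strand (GRCm38). It had 2.69, 2.85, 1.82 and 2.04 scaled FPKM in striatal IP, against 1.08, 1.88, 1.47 and 1.77 in striatal input. Its hippocampal levels were 1.82, 1.76, 1.82 and 1.83 in the IP, against 10.6, 8.99, 11.3 and 9.10 in the input. The hippocampal inputs stood far above the other 12 libraries, and the striatal groups overlapped. The log2 difference was -1.96 ± 0.13 in the hippocampus (adjusted p = 1.61e-09). In the striatum it rose by 0.39 ± 0.13 (adjusted p = 0.0157), a call lost with no scaling (0.18, adjusted p = 0.214), without animal 970 (adjusted p = 0.202) or 971 (0.0574), and in a fit of the 2 striatal groups alone (0.082). Pcdh8, which synaptic activity induces in neurons, was lower in both IPs, although not called in a fit of the 2 striatal groups alone (adjusted p = 0.0556), and Pcdh18 was higher in hippocampal IP, both at means of at most 2.62 ± 0.204 (Pcdh8, hippocampal input). Only the hippocampal inputs of Pcdh8, from 2.42 to 2.86, were above 1 scaled FPKM, so it met the filter through that group alone.

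Pcdh20, a nonclustered protocadherin at chr14:88464743-88471396 on the minus strand (GRCm38), had 6.26, 4.99, 4.002 and 4.07 scaled FPKM in striatal IP, against 1.26, 2.003, 2.70 and 1.48 in striatal input. The hippocampus had 3.95, 4.36, 4.91 and 3.12 in the IP, against 22.7, 21.4, 24.97 and 19.8 in the input. The IPs of the 2 regions overlapped, while the hippocampal inputs were all above and the striatal inputs all below them. The log2 difference was 1.04 ± 0.17 in the striatum (adjusted p = 4.52e-05) and -2.20 ± 0.17 in the hippocampus (adjusted p = 6.96e-09). Its IP level as a percentage of the input, averaged over the animals, was 292% in the striatum and 18.3% in the hippocampus.

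Between striatal IP and hippocampal IP, 12 of the 71 members differed, 3 higher and 9 lower in the striatum. Of all genes tested 12.5% differed, 7.19% higher and 5.35% lower. The members higher in striatal IP were Cdh7, Cdh13 and Cdh18. Those lower in striatal IP were Cdh4, Pcdh1, Pcdh8, Pcdhga8, Pcdhgb1, Pcdhb14, Pcdhb8, Pcdhb2 and Pcdhb4, the last pair named here after their values were seen. The median log2 difference of the members was -0.21, and that of all genes -0.02. Of 10 astrocyte markers, 5 were lower in striatal IP and none higher, with a median of -0.49, and the part of this in the members' differences was not tested. With no scaling the median of all genes was 0.11, the share of all calls that were higher was 69.4%, where it was 57.3% with scaling, and 2 members were higher and 6 lower. Without animal 970, 971 or 977, 5 members were called in each case. With the animal as a block, 17 members differed, 6 of them higher, Cdh8 (adjusted p = 0.0468) and Cdh9 (0.0419) among those gained.

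Cdh4 had every striatal IP below every hippocampal IP, with means of 2.80 ± 0.383 in striatal IP and 6.29 ± 0.592 in hippocampal IP (SD, n = 4 each), a difference of -0.94 ± 0.16 (adjusted p = 0.000818). Pcdhb14 averaged 6.93 ± 2.32 in striatal IP and 14.97 ± 3.37 in hippocampal IP, again with no overlap, and differed by -1.04 ± 0.21 (adjusted p = 0.00346). Pcdh8 was at 0.117 ± 0.0548 in striatal IP and 0.594 ± 0.120 in hippocampal IP, a difference of -0.51. Both levels were under the filter's FPKM of 1. Pcdh1 averaged 66.7 ± 12.2 in striatal IP and 93.6 ± 8.28 in hippocampal IP, and differed by -0.50 ± 0.13 (adjusted p = 0.0143), a call lost without animal 970 (adjusted p = 0.0744) or 977 (0.116). Pcdhga8 had a difference of -0.56 (adjusted p = 0.013), which was lost without animal 970 (0.0746) or 971 (0.0818) and with no scaling (0.113). Pcdhb8 had a difference of -0.64 (adjusted p = 0.0248). That call was lost without animal 970 (0.161), 971 (0.131) or 977 (0.052), and in a fit of the IP groups alone (0.078). Pcdhgb1 had one of -0.52 (adjusted p = 0.0468), which was lost without animal 970 (0.16), 971 (0.155) or 977 (0.263) and with no scaling (0.176). The calls of Cdh4, Cdh7, Pcdh8 and Pcdhb14 held under every alternative that tested them.

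Cdh7 averaged 2.44 ± 1.48 scaled FPKM in striatal IP and 0.269 ± 0.176 in hippocampal IP, every striatal value above every hippocampal one, and differed by 1.34 ± 0.26 (adjusted p = 0.00197). Cdh13 averaged 5.42 ± 2.61 in striatal IP and 2.37 ± 0.950 in hippocampal IP, which overlapped, with a difference of 0.88 ± 0.25 (adjusted p = 0.0264) that was lost without animal 971 (adjusted p = 0.0513) or 977 (0.269). Cdh18 averaged 1.78 ± 0.843 in striatal IP and 0.606 ± 0.533 in hippocampal IP, which overlapped too, with a difference of 0.79 ± 0.24 (adjusted p = 0.0352) that was lost without animal 970 (0.0815), 971 (0.0963) or 977 (0.335) and with no scaling (0.0509). All 3 genes were also higher in striatal input than in hippocampal input, Cdh18 by 0.70 (adjusted p = 0.0301), a call lost without animal 971 (0.163), 974 (0.0581) or 977 (0.13), and without striatal inputs 971 and 974, at 0.42 (0.334). All 3 were lower in IP than in input. Of 9 markers of striatal projection neurons, 8 were higher in striatal IP than in hippocampal IP, with sums of 210 to 354 in striatal IP, 1960.0 to 2314.0 in striatal input, 71.9 to 88.3 in hippocampal IP and 35.0 to 37.8 in hippocampal input. Of 10 oligodendrocyte markers, 6 were higher in striatal IP than in hippocampal IP and none lower, with sums of 95.7 to 143 in striatal IP and 89.0 to 93.9 in hippocampal IP. No marker of these lists was at 0 in all libraries of a group, and their part in the 3 differences was not tested. For 6 members higher in the IP of both regions no difference between the IPs was called: the adjusted p was 0.998 for Pcdhgc3, 0.891 for Cdh2, 0.361 for Cdh20, 0.988 for Pcdhgc5, 0.398 for Cdh10 and 0.904 for Pcdh10.

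Between striatal input and hippocampal input, 23 members were higher and 8 lower in the striatum. Among all genes 35.9% differed, 18.4% higher and 17.5% lower. Beta members were 10 of the 23, and no alpha member was higher. Every striatal input was above every hippocampal input for 19 members, where this held for 17.8% of all genes, and below for 8, where it held for 15.7%. Without striatal inputs 971 and 974, 14 members were higher, 4 of them beta members. Without animal 971, 18 members were called, 12 of them higher, again with 4 beta members. The median log2 difference of the members was 0.23 and that of all genes 0.00. With no scaling the median of all genes was -0.11, the share of all calls that were higher 39.1%, where it was 51.4% with scaling, and 21 members were higher and 9 lower.

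Pcdh20 had the widest gap of the described members between the tissues, with 1.86 ± 0.643 scaled FPKM in striatal input and 22.2 ± 2.21 in hippocampal input (SD, n = 4 each), a difference of -3.04 ± 0.17 (adjusted p = 9.20e-10). Cdh7 averaged 10.7 ± 2.89 in striatal input and 1.42 ± 0.264 in hippocampal input, a difference of 2.24 ± 0.26 (adjusted p = 4.24e-06). Pcdh19 had a difference of -2.12 ± 0.13 (adjusted p = 3.81e-09). Cdh13 was higher there by 1.71 ± 0.25 (adjusted p = 4.79e-05), Pcdh11x by 1.35 (adjusted p = 5.24e-07) and Pcdh10 by 1.14 (adjusted p = 0.00014). None of these genes had overlapping inputs. Lower in the striatum were also Pcdh8 (-1.35), Pcdh1 (-1.31), Cdh24 (-1.03), Cdh12 (-0.98), Pcdhac2 (-0.72) and Cdh2 (-0.56), with adjusted p of at most 0.0102. Pcdh8 met the filter through its hippocampal inputs alone. Cdh24, at 0.346 ± 0.386 in striatal input and 1.69 ± 0.382 in hippocampal input, would not have met it without the hippocampal inputs. Cdh2 was not called without animal 970 (adjusted p = 0.0745) or 971 (0.0583), nor Pcdhac2 with a pseudocount of 0.1 (0.0626), and Cdh12 came to -1.54 without striatal inputs 971 and 974. Pcdh7 was higher by 1.11 (adjusted p = 0.00509) and Pcdh17 by 0.85 (adjusted p = 0.00986). Without striatal inputs 971 and 974, Pcdh7 came to 0.42 (adjusted p = 0.016) and Pcdh17 to 0.41 (adjusted p = 0.229). Without animal 971 neither was called (adjusted p = 0.0663 for Pcdh7 and 0.0967 for Pcdh17).

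Whether the difference between IP and input was the same in both regions was tested by the interaction of tissue and fraction. Of the 71 members, 24 had a different effect, 6 with a greater and 18 with a smaller value in the striatum. Among all genes 13.6% were called, 6.64% greater and 6.94% smaller. Beta members made up 11 of the 18. Without animal 970, 13 members were called, 7 of them beta members with a smaller value, and without animal 971, 5 members were called, 1 of them a beta member. The interaction was 3.23 ± 0.24 for Pcdh20 (adjusted p = 4.41e-07) and 2.36 ± 0.19 for Pcdh19 (adjusted p = 8.39e-07). For Cdh4 it was -1.58 ± 0.23 (adjusted p = 0.00022), for Pcdhb13 -1.76 ± 0.35 (adjusted p = 0.00277) and for Pcdh11x -1.06 ± 0.18 (adjusted p = 0.000882). Of the 22 members called here that were followed through the alternatives, these 5 kept their call in every one. Pcdhb13 came to -1.12 without striatal inputs 971 and 974, and the hippocampal levels of Pcdh11x were under the filter.

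**Figure D4:**
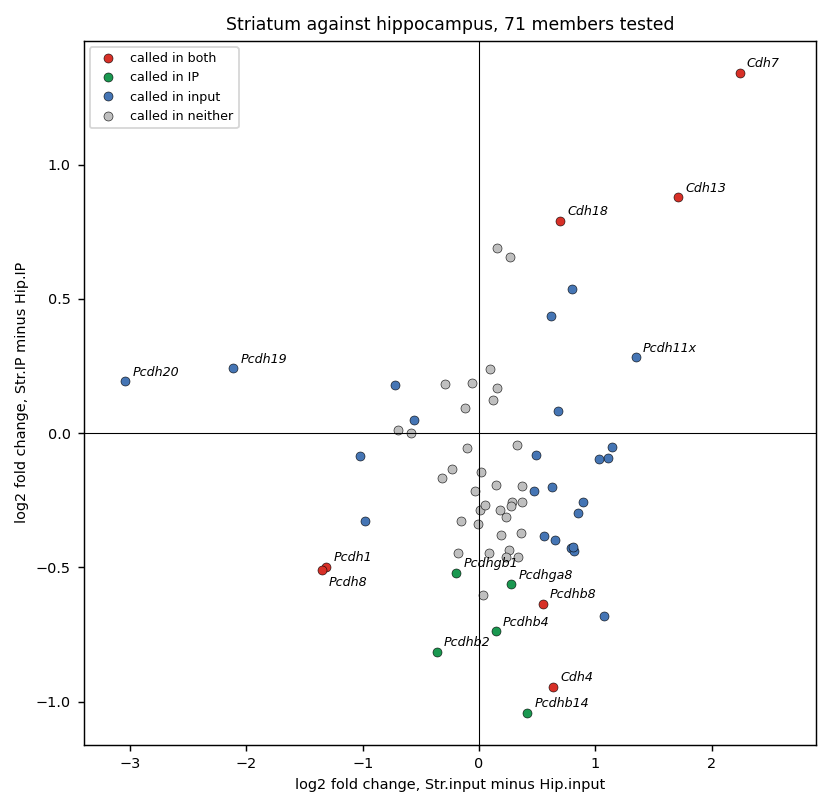
Log2 difference of striatum minus hippocampus, in log2(scaled FPKM + 1) units, between the IPs (vertical) and between the inputs (horizontal), with 1 point for each of the 71 members tested, coloured by the comparison in which it was called. Pcdh20 and Pcdh19 lie farthest left, at -3.04 and -2.12 between the inputs, and Cdh4 lies below 0 between the IPs, at -0.94, and right of 0 between the inputs, at 0.64.

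Between the IPs no difference was called for Pcdh20 (adjusted p = 0.538) or Pcdh19 (adjusted p = 0.283), whereas between the inputs it was -3.04 for Pcdh20 and -2.12 for Pcdh19. Cdh4 differed between the IPs and between the inputs in opposite directions, -0.94 in the IPs and 0.64 in the inputs. Between the inputs it was not called without animal 970 (adjusted p = 0.0545) or 977 (0.0605). Pcdh10 had an interaction of -1.19 (adjusted p = 0.00535), or -0.79 without striatal inputs 971 and 974 and not called without animal 971 (adjusted p = 0.062), and Pcdh1 one of 0.82 (adjusted p = 0.00548), lost without animal 970 (0.0574) or 971 (0.0715). With no scaling the median interaction of all genes was 0.25, the share of calls that were greater was 72.2%, where it was 48.9% with scaling, and members called numbered 7 greater and 13 smaller.

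The partners of cadherins were read from lists chosen by function, to be read against 32.6% of all genes higher and 32.5% lower in striatal IP, and 31.8% higher and 33.4% lower in hippocampal IP. Of 8 catenins tested, which tie cadherins to actin, 5 were higher and 1 lower in striatal IP, and 7 were higher and 1 lower in hippocampal IP, with a median log2 difference of 0.78 in the striatum and 1.29 in the hippocampus. Ctnnb1, or beta-catenin, averaged 86.6 ± 19.2 scaled FPKM in striatal IP, 32.1 ± 1.73 in striatal input, 109 ± 11.8 in hippocampal IP and 41.1 ± 1.87 in hippocampal input, a rise of 1.38 in the striatum and 1.38 in the hippocampus. Ctnna1, or alpha-E-catenin, averaged 78.5 ± 12.6 in striatal IP, 19.2 ± 2.70 in striatal input, 101 ± 8.91 in hippocampal IP and 9.86 ± 0.626 in hippocampal input, a rise of 1.97 in the striatum and 3.23 in the hippocampus. Jup, or plakoglobin, rose by 1.67 and 2.19, and Ctnnd1, or p120-catenin, by 0.76 and 1.20, in the striatum and the hippocampus in turn. Of 7 large cadherins of the Fat, Dachsous and Celsr kinds, 5 were higher and 1 lower in striatal IP and 3 were higher and 1 lower in hippocampal IP, with medians of 1.72 and 0.26. Fat1 rose by 2.39 in the striatum and 3.23 in the hippocampus, Dchs1 by 2.10 and 2.39, and Celsr1 by 2.30 and 2.63. Of 4 calsyntenins and cadherin-related genes none was higher and 3 were lower in each region, with medians of -0.90 in the striatum and -1.84 in the hippocampus and with Clstn2 at -2.41 and -3.01. The 1 desmosomal cadherin tested was lower in both regions. Of 15 regulators and effectors of clustered protocadherins, 6 (40%) were higher and 3 (20%) lower in striatal IP, and 11 (73.3%) were higher and 2 (13.3%) lower in hippocampal IP, with medians of 0.20 and 0.52. The striatal share of 40% was near that of all genes. Among these, the cohesin subunit Rad21 rose by 1.22 and 1.45, and Wasf1, the WAVE protein, fell, at -1.74 and -2.41. The calls of the 10 partner genes given with values held under every alternative.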

How the data were processed

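RNA of 16 libraries, 4 per group from 4 mice, was made from 100 ng of RNA with the Nugen Ovation RNA-Seq System V2 kit, per the labels' protocols. Base calls were converted with bcl2fastq 2.17, and STAR, HTSeq and genome build mm10 were used, per the submitters' processing notes, with the STAR and HTSeq versions not given in the sources used here. The authors deposited 1 value per gene and library, read here as FPKM from the steps between values, since the labels and headers do not name the unit. Each table held 24060 labels, 27 of them date-like.

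Deposited FPKM were divided by a trimmed-mean factor per library (30% of log ratios and 5% of levels trimmed at each end). The 13470 genes with an FPKM of at least 1 in at least 4 libraries were fitted with limma 3.58.1 in R 4.3.3 on log2(value + 1), with trended and robust variance, all 4 groups in 1 fit, 12 residual degrees of freedom and no animal term. P-values were adjusted by the Benjamini-Hochberg method over all genes tested and called under 0.05. The depth of a library was estimated, not counted, and no interval was drawn from it. Python 3.11.15, pandas 2.3.3, numpy 2.4.6 and matplotlib 3.10.9 were also used.

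The members and gene lists were chosen with earlier results of these data known. Members that averaged 5 scaled FPKM or more in a group were described in every library, others by counts and, where called with a log2 difference over 1, by value. Pcdhgb2, Pcdhga1, Pcdhga2, Pcdhga9, Pcdha5, Pcdha12, Pcdh18, Cdh6 and Cdh22 were named after their values were seen. The labels give the animal of each library, so that groups are paired. Libraries of the same animal deviated from their group means with a correlation of -0.01 to 0.08 between striatal IP and input, 0.09 to 0.17 between hippocampal IP and input, 0.31 to 0.53 between the IPs and 0.05 to 0.32 between the inputs. Alternatives changed the pseudocount, filter, scaling, variance model, groups in the fit and animal term, and left out single animals or striatal inputs 971 and 974. Gene positions came from GENCODE vM21 and promoter windows from RefSeq, both on GRCm38.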

Additional observations from a re-analysis of the deposited data

Results flagged for a closer look

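In 12 of 176 groups of 4 libraries (6.82%), 1 library stood apart from the others, where chance flags about 1 in 20. Animal 974 gave the low value in 5 of them. Pcdhga7 had 8.10 scaled FPKM in its striatal IP (others 12.2 to 12.4) and 11.1 in its hippocampal IP (others 13.4 to 13.7). Pcdhga6 had 5.69 in its striatal IP (others 8.27 to 8.55), Pcdhgb4 4.69 in its striatal IP (others 5.71 to 5.88) and Pcdhgb7 9.32 in its hippocampal IP (others all 11.6). The same animal was high for Cdh2 in striatal input, at 19.9 (others 13.4 to 13.7), and for Cdh9 in hippocampal input, at 20.0 (others 15.8 to 16.2). The remaining 5 were Cdh19 in hippocampal IP of animal 971, high at 23.8, Cdh2 in hippocampal input of animal 971, low at 21.4, Pcdh17 in hippocampal input of animal 970, high at 22.1, Pcdh19 in hippocampal IP of animal 971, low at 1.76, and Pcdhga7 in striatal input of animal 970, low at 2.94.

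The difference between IP and input was itself different between striatum and hippocampus, by limma's interaction test with adjusted p under 0.05, for the 22 members described in every library or by value. It was greater in the striatum for Pcdh20 (3.23 on the log2 scale), Pcdh19 (2.36), Cdh24 (0.94), Pcdhac2 (0.91), Pcdh8 (0.84) and Pcdh1 (0.82). Of these, Cdh24 and Pcdh8 would not have met the filter without their hippocampal inputs. The difference was smaller in the striatum for Cdh4 (-1.58), Pcdh10 (-1.19), Pcdh17 (-1.15) and Pcdh11x (-1.06). The same held for Pcdhga6 (-1.15), Pcdhga8 (-0.84) and Pcdhga10 (-0.83) of the gamma cluster. In the beta cluster it was -1.76 for Pcdhb13, -1.46 for Pcdhb14, -1.26 for Pcdhb18, -1.23 for Pcdhb6, -1.22 for Pcdhb16, -1.18 for Pcdhb8, -1.13 for Pcdhb20, -1.05 for Pcdhb7 and -0.94 for Pcdhb17. Pcdh17, Pcdhac2 and Pcdhga10 lost the call whichever animal was left out. Without animal 971 the call was also lost for Cdh24, Pcdh1, Pcdh10, Pcdhga6, Pcdhga8 and for Pcdhb6, Pcdhb7, Pcdhb8, Pcdhb14, Pcdhb16, Pcdhb17, Pcdhb18 and Pcdhb20. Leaving out animal 970 ended it for Pcdh1, Pcdhga6, Pcdhga8, Pcdhb6 and Pcdhb18, animal 974 for Cdh24, Pcdhb6, Pcdhb17 and Pcdhb20, and animal 977 for Cdh24 and Pcdhb17. Without striatal inputs 971 and 974, Pcdh17 (-0.67), Pcdhga10 (-0.64), Cdh24 (0.78), Pcdhb6 (-0.99) and Pcdhb17 (-0.52) were not called, and Pcdhb13 came to -1.12, Pcdhb18 to -0.81 and Pcdh10 to -0.79. The calls of Pcdh20, Pcdh19, Cdh4, Pcdh11x and Pcdhb13 held in every alternative that tested them, and that of Pcdh8 was lost with a pseudocount of 0.1.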

How the results depend on the processing

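Single values were followed through the alternatives for 50 members, those described in every library or called with a log2 difference over 1. Single calls of the other members were not followed. Results called in no fit were set aside, which left 2405 member values under alternatives. Of these, 2144 kept direction and call, 187 lost the call, 66 gained one and 8 reversed. Of 145 calls of the 50 members, 92 held throughout: 35 of 41 for IP against input in the striatum, 35 of 44 in the hippocampus, 4 of 10 between the IPs, 13 of 28 between the inputs and 5 of 22 for the interaction. The reversed values were, in the striatum, Cdh4 at 0.0155 without animal 970 and 0.0184 without 977 (-0.23 to 0.0184 over single animals), Pcdh17 at 0.23 without 974 (-0.38 to 0.23 over single animals) and 0.24 without striatal inputs 971 and 974, and Pcdh7 at -0.0124 with no scaling. In the hippocampus with no scaling they were Cdh11 at -0.28, Pcdhb13 at -0.0404 and Pcdhga3 at -0.0663. Of 250 member values, 70 were called in no fit, and 22 of these changed sign somewhere. With a mean FPKM of at least 5, which tests 7408 genes, the striatum had 5417 genes and 20 members called, 15 higher (8 gamma) and 5 lower (2 beta). The hippocampus then had 5387 genes and 24 members, 18 higher (10 gamma, 1 beta) and 6 lower. The IPs had 944 genes and 3 members, 1 higher and 2 lower, and the inputs 3042 genes and 12 members, 9 higher (2 beta) and 3 lower. The interaction had 1144 genes and 10 members, 3 greater and 7 smaller (3 beta). With no filter, 28 members were lower in hippocampal IP. Beta members higher in hippocampal IP were 2 with no scaling and 11 with only those groups fitted. Members higher in striatal IP than hippocampal IP were 5 with a pseudocount of 0.1 and 5 without striatal inputs 971 and 974, which also left 14 members higher between the inputs, 4 of them beta. The cause of these shifts was not tested. Leaving out 1 animal gave 7 to 13 beta members lower in striatal IP, 10 to 15 members lower and 3 to 7 beta members higher in hippocampal IP. Between the IPs it gave 818 to 1277 genes and 5 to 10 members, 1 to 3 higher and 3 to 7 lower. Between the inputs it gave 2457 to 4234 genes, 18 to 26 members, 12 to 18 higher and 4 to 8 beta members. For the interaction it gave 583 to 1354 genes, 5 to 18 members, 2 to 4 greater and 3 to 14 smaller, 1 to 9 of them beta.

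With the animal as a block for the pairing, members called were 50 in the striatum (49 shared with the fit without it), 56 in the hippocampus (53 shared), 17 between the IPs (12 shared, 6 higher), 33 between the inputs (31 shared) and 24 for the interaction (22 shared). The interaction of Pcdhac2 was lost there (adjusted p = 0.0573) and that of Cdh13 gained (0.0483). The shallow striatal inputs limit what can be said of low members there.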

Other observations

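Pcdhgb8 was low in the IPs of 1 animal. In animal 977 it had 1.69 scaled FPKM in striatal IP and 1.23 in hippocampal IP, where animals 970, 971 and 974 had 7.86, 8.13 and 5.07 in striatal IP and 10.3, 10.3 and 8.43 in hippocampal IP. The hippocampal input of animal 977 was also the lowest, at 0.667, while its striatal input, at 1.45, lay within the range of 1.40 to 2.53 of the others. The mice were of a mixed FVB and C57/Bl6N background and of both sexes, and the part of either was not tested.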
